A study of Mus musculus with 4 samples.

Results

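Podxl, Ptpro, Nes, Sulf1, Vegfa, Angpt1 and Npnt are 7 genes known for products that podocytes place on their surface, build into their filaments or release. They were chosen by name from 21887 mouse protein-coding genes, and every WT1 peak with its midpoint in the gene or within 50 kb of it was collected. WT1 was mapped by chromatin immunoprecipitation and sequencing (ChIP-seq) in kidneys dissected from wild-type mouse embryos at E18.5, late gestation. The embryos were of a mixed background made by crossing C57Bl6 with B6DBA/F1. There were 2 samples precipitated with a polyclonal WT1 antibody (C-19) and 2 precipitated with IgG as the negative control, from experiments described as independent. The IgG samples were not analysed here. All samples were whole kidneys, so binding in podocytes, in nephron progenitors and in other cells cannot be told apart. The labels do not say how many embryos went into a sample. The peak lists hold no expression values, and the podocyte label of the genes was not checked against these data.

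Podocytes are the epithelial cells that wrap the glomerular capillaries with interlocking foot processes. Podocalyxin (Podxl) and the receptor phosphatase Ptpro sit on the apical surface of the foot processes, and nestin (Nes) is an intermediate filament protein that keeps the shape of progenitor cells and podocytes. Podocytes also send out factors that act on neighbouring cells and on the matrix, among them vascular endothelial growth factor A (Vegfa), angiopoietin 1 (Angpt1), the matrix protein nephronectin (Npnt) and the heparan sulfate sulfatase Sulf1. WT1 is a zinc-finger transcription factor that is made in nephron progenitors and, at a high level, in podocytes.

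The data for these genes were 54 of the 53132 peaks of WT1 replicate 1 and 70 of the 57641 peaks of WT1 replicate 2. Each peak carries 1 value given by the authors, a p-value or q-value no higher than 0.05, called the deposited value here. A further table lists 17234 regions found in both replicates, each with an irreproducible discovery rate (IDR), an estimate of the error rate of calling a region repeatable between replicates. Of these overlap regions, 31 belonged to the 7 genes, and 12 of the 31 had an IDR of 0.05 or lower and are called reproducible. That is 38.7% at these genes, against 25.6% of all overlap regions (4411 of 17234). Sulf1 alone gave 5 of the 12, from 7 overlap regions. The median IDR was 0.0906 over the 31 regions and 0.25 over all regions. The files give no read counts, and the depth behind each peak is unknown.

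Reproducible WT1 regions lay at 4 of the 7 genes, Sulf1 with 5, Nes with 3, and Ptpro and Vegfa with 2 each. Podxl, Angpt1 and Npnt had none by this rule. Over all protein-coding genes, 26.1% had at least 1 such region in the gene or within 50 kb. Any overlap region, whatever its IDR, was present at 6 of the 7 genes and at 57.0% of all genes. The median number of reproducible regions was 2 at the 7 genes and 0 over all genes. As a set the 7 genes are longer than most, with a median of 68.5 kb against 17.2 kb, so most of their windows are wider. Nes and Vegfa are shorter than the median over all genes. The 4 genes with a reproducible region measured 9.36 kb (Nes), 15.4 kb (Vegfa), 169 kb (Sulf1) and 212 kb (Ptpro), and the 3 without one measured 44.4 kb (Podxl), 68.5 kb (Npnt) and 252 kb (Angpt1). With 2 samples of 1 group and genes chosen by name, these counts are descriptions and no test was made.

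**Figure D1:**
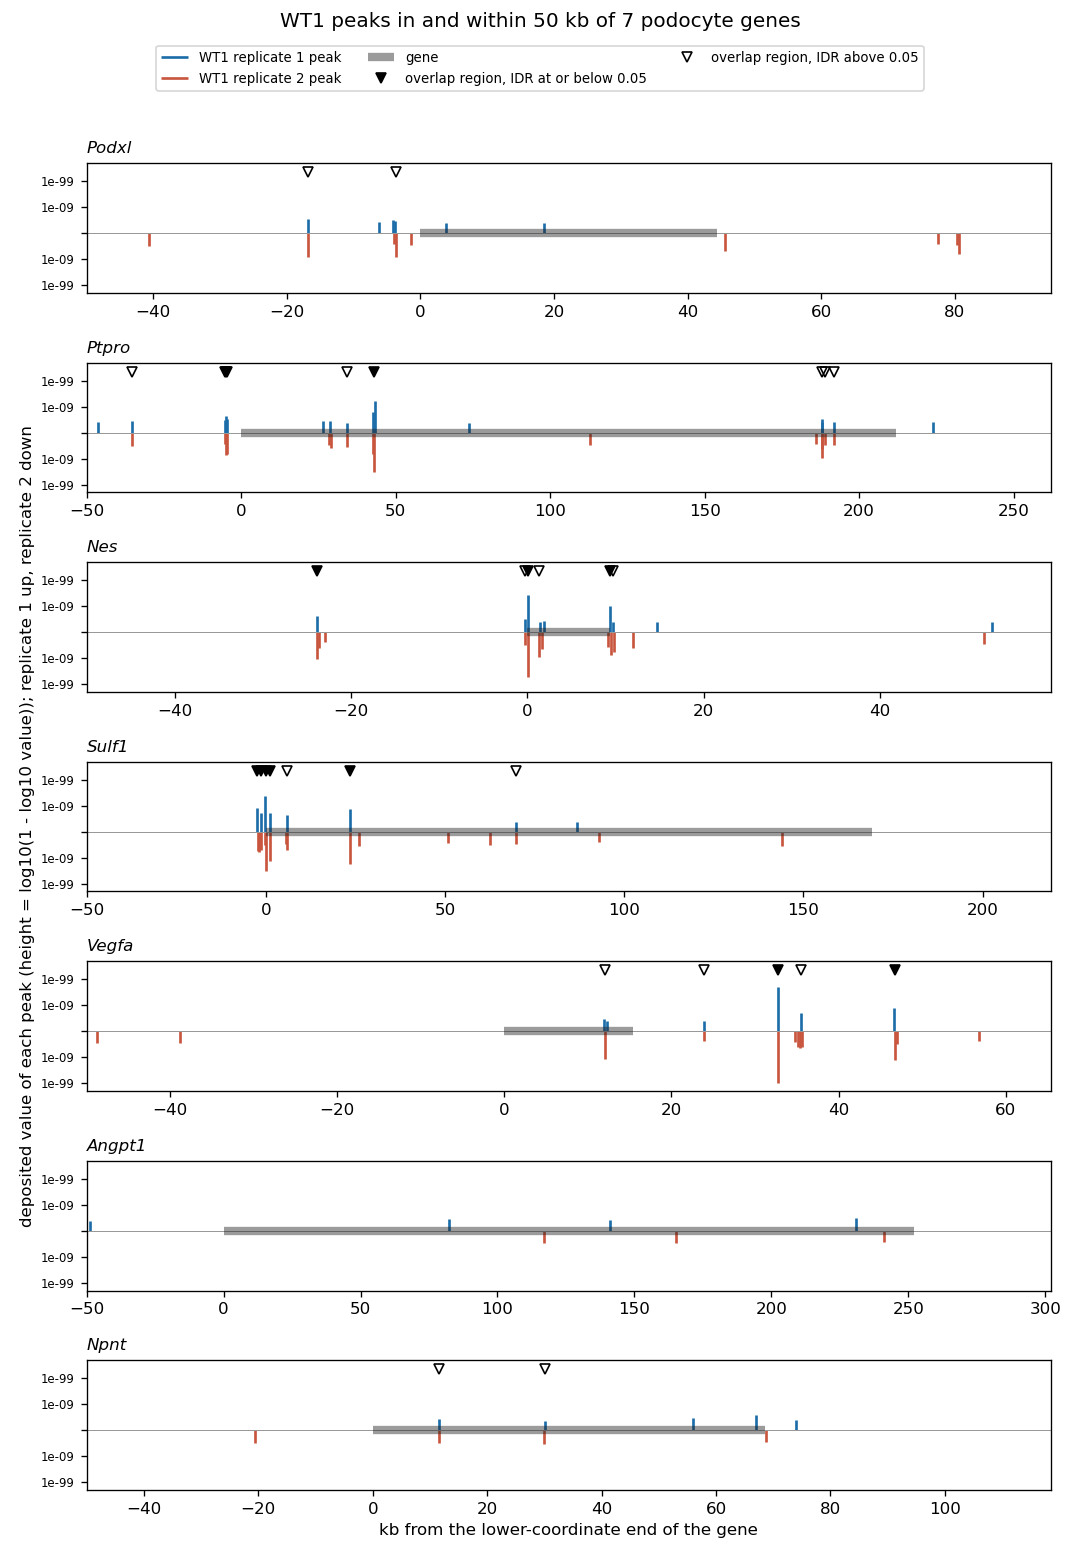
WT1 peaks along each of the 7 genes, by distance in kb from the lower-coordinate end of the gene (grey bar). Blue lines upward are peaks of WT1 replicate 1 and red lines downward those of replicate 2, with height growing as the deposited value gets smaller (a doubly logarithmic scale); filled triangles are overlap regions with an IDR of 0.05 or lower and open triangles those above it. Sulf1 and Nes had reproducible regions at a gene end, Vegfa had its 2 reproducible regions 17.3 and 31.3 kb outside the gene, and Angpt1 had 7 peaks of which none overlapped between replicates.

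Podxl encodes podocalyxin, a sialylated membrane protein of the CD34 family whose negative charge keeps foot processes apart. The gene lies at chr6:31519493-31563937 (mm10). Replicate 1 had 6 peaks in its window and replicate 2 had 9, and 2 of each overlapped the other list. Both overlap regions lay below the lower-coordinate end of Podxl and inside the neighbouring gene Mkln1. The one at chr6:31502647-31502772, 16.8 kb from Podxl, had deposited values of 0.00359 in replicate 1 and 7.56e-08 in replicate 2 and an IDR of 0.0715. The one at chr6:31515622-31515923, 3.72 kb from Podxl, had 0.0118 in replicate 1 and 8.31e-08 in replicate 2 and an IDR of 0.312. In both, replicate 2 had the far smaller value. Their peaks ranked 4180 and 4220 in replicate 2, and 9228 and 15557 in replicate 1.

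Inside Podxl itself there were peaks of replicate 1 alone. The strongest peaks near the other end were in replicate 2 alone, 1 at chr6:31564941-31565257, 1.16 kb beyond the higher-coordinate end, with a value of 0.000137, and 1 at chr6:31600011-31600183, 36.2 kb beyond it, with a value of 3.27e-06. The nearest reproducible region was past the 50 kb limit. It lay 66.3 kb beyond the higher-coordinate end at chr6:31629986-31630444, with values of 1.39e-07 in replicate 1 and 1.31e-21 in replicate 2 and an IDR of 0.000299, and Podxl was the protein-coding gene nearest to it. The limit thus decides whether Podxl counts as having a reproducible region.

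Ptpro encodes a receptor-type tyrosine phosphatase, also called GLEPP1, of the apical podocyte membrane. It is the second longest of the 7 genes (chr6:137252299-137464634), and it had the most overlap regions, 9, of which 2 were reproducible. The stronger lay inside the gene, 43 kb downstream of the start, at chr6:137294799-137295717. It was 919 bp wide and joined 3 peaks of replicate 1 with 2 peaks of replicate 2. The lowest deposited value in it was 3.58e-16 in replicate 1 and 1.33e-32 in replicate 2, and the IDR was 0.000202, rank 1281 of 17234. Of the reproducible regions at the 7 genes, this was the widest.

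The other reproducible region of Ptpro lay 4.91 kb upstream of the start at chr6:137247213-137247557, with values of 0.000318 in replicate 1 and 1.15e-06 in replicate 2 and an IDR of 0.0338. A further overlap region abutted it (IDR 0.0867) and another lay just before it (IDR 0.406), so 3 of the 9 stood side by side there. A second group of 3 lay near the far end of the gene, between chr6:137440292-137440645 and chr6:137444394-137444558, with IDRs of 0.0684, 0.255 and 0.0947. No peak of either replicate overlapped the promoter window of Ptpro, which runs from 250 bases before to 50 after its start.

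Nes encodes nestin. The gene is short (chr3:87971093-87980451) and held the region with the second lowest IDR among the 7 genes. That region covered the start of the gene, at chr3:87970911-87971463, with 1 peak in each replicate. The deposited value was 2.33e-26 in replicate 1 and 4.07e-51 in replicate 2, ranks 287 and 252 of their lists. The IDR was 7.29e-07, rank 182 of 17234. The promoter window of Nes is printed here because both replicates had a peak over it, with the bases under the overlap region in capitals (RefSeq, GRCm38.p6, the assembly behind mm10; chr3:87970843-87971142, plus strand, with the start 50 bases from the right-hand end).
Nes: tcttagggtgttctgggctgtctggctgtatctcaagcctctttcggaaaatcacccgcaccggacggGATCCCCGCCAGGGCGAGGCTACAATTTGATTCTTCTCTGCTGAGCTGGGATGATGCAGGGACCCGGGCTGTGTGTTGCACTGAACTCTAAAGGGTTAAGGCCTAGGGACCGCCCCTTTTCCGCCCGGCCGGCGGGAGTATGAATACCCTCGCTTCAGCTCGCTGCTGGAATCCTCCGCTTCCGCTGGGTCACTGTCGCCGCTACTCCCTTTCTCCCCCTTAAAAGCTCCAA

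Of the 300 bases, 232 lay under the region, and 58.7% were G or C, against a median of 52.7% over all promoter windows. Words reported for WT1 or related zinc fingers were searched on both strands. The word TCCTCC occurred once in the Nes window, with its first base 11 bases before the start and under the peak. It occurred in 34.6% of all 32817 windows of this length and in 56% of the 625 windows that overlap a reproducible region. GCGTGGG, GCGGGGGCG and GTGGGAG were not in the Nes window. Over all windows they occurred in 5.04%, 2.91% and 9.73%, and in the windows that overlap a reproducible region in 18.4%, 12.3% and 23.4%. These words are rich in G, and the windows were not matched for G and C content. A match describes the letters and does not mark a site of binding.

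Nes had 2 more reproducible regions. One lay at the other end of the gene, with its midpoint 56.5 bp beyond it, at chr3:87980377-87980638. Its values were 6.24e-10 in replicate 1 and 1.28e-07 in replicate 2 and its IDR was 0.00258, so here replicate 1 had the smaller value. The other, at chr3:87947059-87947303, was 23.9 kb upstream of Nes and only 1.51 kb from Crabp2, which encodes a retinoic acid binding protein. It had 0.000433 in replicate 1, 9.21e-11 in replicate 2 and an IDR of 0.0107. Inside Nes, 1.29 kb from the start, a region with a strong peak in replicate 2 (2.05e-08) had a weak one in replicate 1 (0.0292) and an IDR of 0.465.

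Sulf1 encodes an extracellular enzyme that removes 6-O-sulfates from heparan sulfate and so changes how growth factors are held there. It had 7 overlap regions and 5 reproducible ones, the most of the 7 genes. Of all protein-coding genes, 0.397% had 5 or more. Of the 5, 4 stood within 3.9 kb around the lower-coordinate end of the gene (chr1:12692197-12861192). The strongest had its midpoint 68 bp outside that end, at chr1:12691961-12692297, with deposited values of 1.37e-22 in replicate 1 and 1.28e-32 in replicate 2. Its IDR was 1.04e-06, rank 266.

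The regions on each side of it were weaker. Outside the gene, chr1:12690825-12691079 had nearly equal values of 8.28e-05 and 7.6e-05 in replicates 1 and 2 (IDR 0.0431), and chr1:12689612-12690110 had 4.71e-08 and 5.23e-05 (IDR 0.0217). Inside the gene, chr1:12693187-12693508 had the same first and last base in both replicates, with 5.46e-05 in replicate 1 and 2.71e-13 in replicate 2 (IDR 0.00437). The fifth reproducible region was 23.4 kb into the gene at chr1:12715425-12715800, with 1.92e-07 in replicate 1, 6.01e-18 in replicate 2 and an IDR of 0.000456. With regions closer than 1 kb merged, Sulf1 had 2 reproducible regions in place of 5, and from the strongest peaks of replicate 2 alone it had 3.

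A reproducible region within 1 kb of a gene end was found at 2 of the 7 genes, Nes and Sulf1, and at 4.13% of all protein-coding genes. Nes had one at each end, so 3 of the 12 reproducible regions lay that close to an end of their gene. Of the 12, 4 had their midpoint inside the gene and 8 outside it. In 1 of the 12, the region beside Crabp2, another protein-coding gene was nearer. The same placement was not counted over all 4411 reproducible regions, so whether it is usual is unknown.

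Vegfa encodes a secreted growth factor by which podocytes maintain the glomerular endothelium. The gene lies at chr17:46016993-46032377, and no reproducible region lay inside it or within 10 kb. The strongest region among the 7 genes was 17.3 kb upstream of its outermost listed start, at chr17:46049482-46049933. It was 452 bp wide, with 1 peak in each replicate. The deposited value was 1.44e-48 in replicate 1 and 5.76e-99 in replicate 2, ranks 65 and 48 of their lists. The IDR was 2.26e-07, rank 41 of 17234, so 0.238% of all regions had an IDR as low or lower. No other protein-coding gene reached into the 50 kb around Vegfa. Just inside that limit was a peak of replicate 2 alone (48.8 kb away, value 0.0156), and just outside it an overlap region with an IDR of 0.526 (52.2 kb away).

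A second reproducible region lay further upstream, 31.3 kb from the start, at chr17:46063360-46063932. It had 1.49e-07 in replicate 1, 4.93e-13 in replicate 2 and an IDR of 0.00146. Between them, 20.1 kb from the start, an overlap region had 0.000102 and 0.000516 in replicates 1 and 2 and an IDR of 0.0906. Inside the gene there was 1 overlap region, at chr17:46028610-46029300. Its peak was strong in replicate 2 (1.95e-11) and weak in replicate 1 (0.0113), and its IDR was 0.302. The promoter windows at both listed Vegfa starts had no peak in either replicate.

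Angpt1 encodes the ligand of the endothelial receptor Tie2. It is the longest of the 7 genes (chr15:42424667-42676977) and had the fewest peaks, 4 in replicate 1 and 3 in replicate 2. None of them overlapped, so no overlap region lay in the 352 kb examined. Among the 990 protein-coding genes of 200 kb or longer, a length chosen after the values were seen, 85.3% had an overlap region, and of the 2 such genes here Ptpro had one and Angpt1 did not. The deposited values at Angpt1 were weak in both samples, 0.00681, 0.0173, 0.0215 and 0.0371 in replicate 1 and 0.00886, 0.0112 and 0.0172 in replicate 2. The nearest reproducible region was 3.76 Mb away. Per 100 kb of window, Angpt1 had 1.14 peaks in replicate 1 and 0.852 in replicate 2, while Nes had 8.23 and 11, the densest of the 7.

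Npnt encodes nephronectin, a matrix protein bound by integrin alpha 8 beta 1 in kidney development. The gene lies at chr3:132881745-132950291. Of 5 peaks in replicate 1 and 4 in replicate 2, 2 of each overlapped. Both overlap regions were inside the gene and weak. At chr3:132893219-132893468 the values were 0.0213 in replicate 1 and 0.0065 in replicate 2 (IDR 0.394), and at chr3:132911715-132911932 they were 0.0436 and 0.00479 (IDR 0.534). The smallest deposited value at Npnt, 0.00111, belonged to a peak of replicate 1 alone, 1.14 kb from the nearer listed start. The nearest reproducible region was 804 kb away.

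The outer promoter window of Npnt held a peak of replicate 2 alone, at chr3:132950399-132950483, 150 bp before the start, with a value of 0.0156. It is printed to set beside that of Nes, with the 85 bases under this peak in capitals (RefSeq, GRCm38.p6; chr3:132950242-132950541, minus strand, with the start 50 bases from the right-hand end).
Npnt: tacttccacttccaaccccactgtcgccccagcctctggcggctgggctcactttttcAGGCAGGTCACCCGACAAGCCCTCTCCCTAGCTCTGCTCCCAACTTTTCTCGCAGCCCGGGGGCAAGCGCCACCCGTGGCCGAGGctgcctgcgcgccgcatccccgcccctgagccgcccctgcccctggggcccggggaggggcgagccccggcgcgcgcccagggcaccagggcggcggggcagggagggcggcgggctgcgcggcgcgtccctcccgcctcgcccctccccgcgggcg

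This window was richer in G and C than that of Nes (76.7% against 58.7%), and none of the 4 words searched was in it. The inner Npnt window held TCCTCC once, and the inner Vegfa window held it on the opposite strand at 2 places. The Ptpro window held GTGGGAG once, 35 bases before the start, sharing letters with TCCTCC on the opposite strand. None of those 3 windows had a peak in either replicate. Promoter sequences for Podxl, Sulf1 and Angpt1 were not used here.

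**Figure D2:**
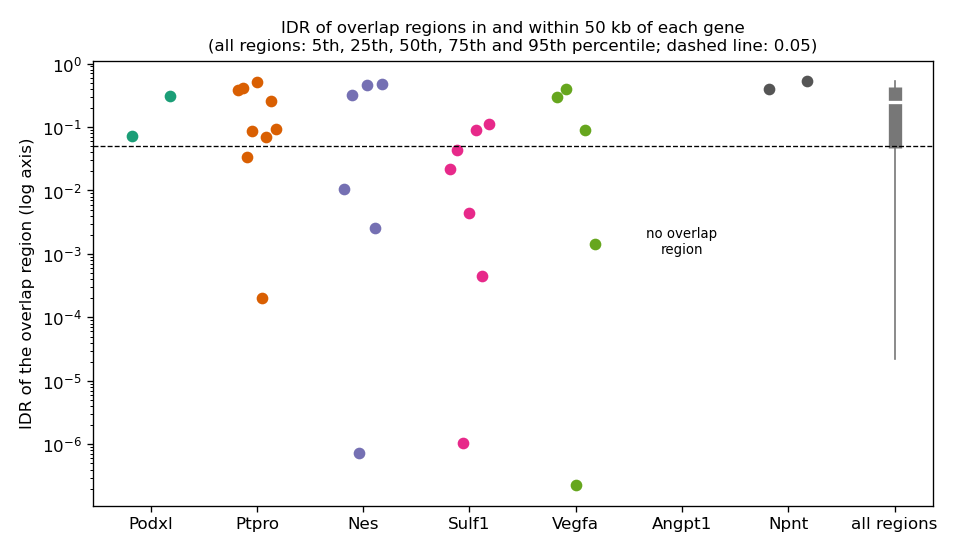
IDR of each overlap region (log axis) in or within 50 kb of each gene, with the spread of all 17234 regions at the right (thin line from the 5th to the 95th percentile, thick bar from the 25th to the 75th, white mark at the median) and a dashed line at 0.05. Vegfa, Nes and Sulf1 each had 1 region at or under 1.04e-06, while both regions of Podxl and both of Npnt lay above the line.

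**Figure D3:**
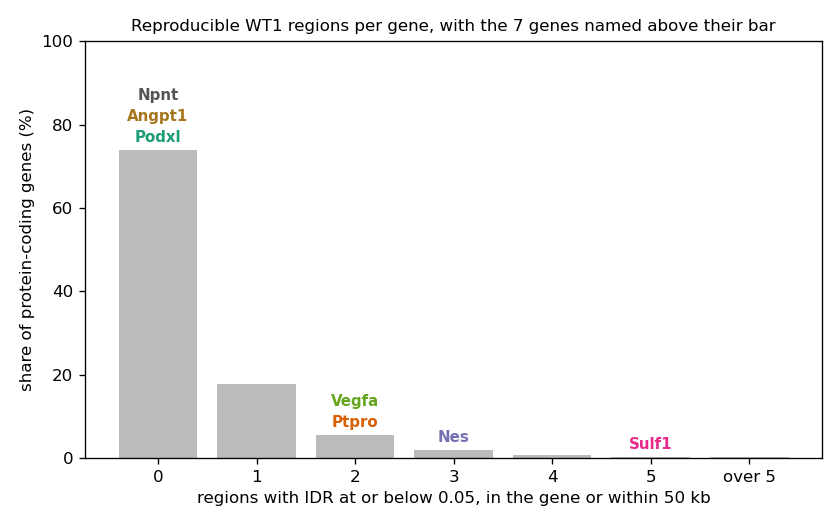
Share of the 21887 protein-coding genes (bars, in percent) with 0 to 5 or more than 5 reproducible regions in the gene or within 50 kb, with each of the 7 genes named above its bar. Podxl, Angpt1 and Npnt stand with the 73.9% of genes that have 0, and Sulf1 with the 0.21% that have 5.

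A larger share of the peaks at these genes was found in both replicates than over the whole lists. Of the peaks of replicate 1 at the 7 genes, 34 of 54 overlapped a peak of replicate 2 (63%, exact Clopper-Pearson 95% interval 48.7 to 75.7), against 34.1% of its whole list (33.7 to 34.5). Of those of replicate 2, 34 of 70 overlapped a peak of replicate 1 (48.6%, 36.4 to 60.8), against 30.8% of its whole list (30.4 to 31.1). For replicate 2, the interval included the whole-list share with a reciprocal overlap of 50% (24.6 to 48.1, against 25.5%) and with values of 0.01 or lower in both lists (28.2 to 56.8, against 31.4%). The intervals cover counting error over peaks only and treat peaks as independent. All peaks of a replicate share 1 sample, and peaks cluster by gene. Ptpro gave 11 of the 34 overlapping peaks in each replicate, so the intervals may be too narrow. Overlapping peaks had the smaller values, with medians of 0.00416 in replicate 1 and 7.98e-06 in replicate 2, and peaks of a single replicate had medians of 0.0261 and 0.01. The whole lists had the same order. Their medians were 0.00938 in replicate 1 and 0.00122 in replicate 2 for overlapping peaks, and 0.0267 and 0.0161 for the others.

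The same region was mostly the more significant in replicate 2. That held for 25 of the 31 regions at the 7 genes (80.6%) and for 75.4% of all overlap regions. Among reproducible regions it was 10 of 12 here (83.3%) and 90.3% of all. The 2 exceptions were the far end of Nes and the outermost region of Sulf1. Over all overlap regions, the IDR rose with the deposited value of each replicate (Spearman rank correlation 0.70 in both). It did not follow the deposited values alone. Among the 31 regions there were 354 ways to choose a region with smaller values than another in both replicates, and in 19 of them (5.37%) it had the larger IDR. A region of Podxl was an example: at chr6:31515622-31515923 the values were 0.0118 and 8.31e-08 in replicates 1 and 2 and the IDR was 0.312, whereas the last region of Ptpro, with 0.0261 and 0.00886, had 0.0947. The sources used here do not give the quantity that the authors ranked on.

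**Figure D4:**
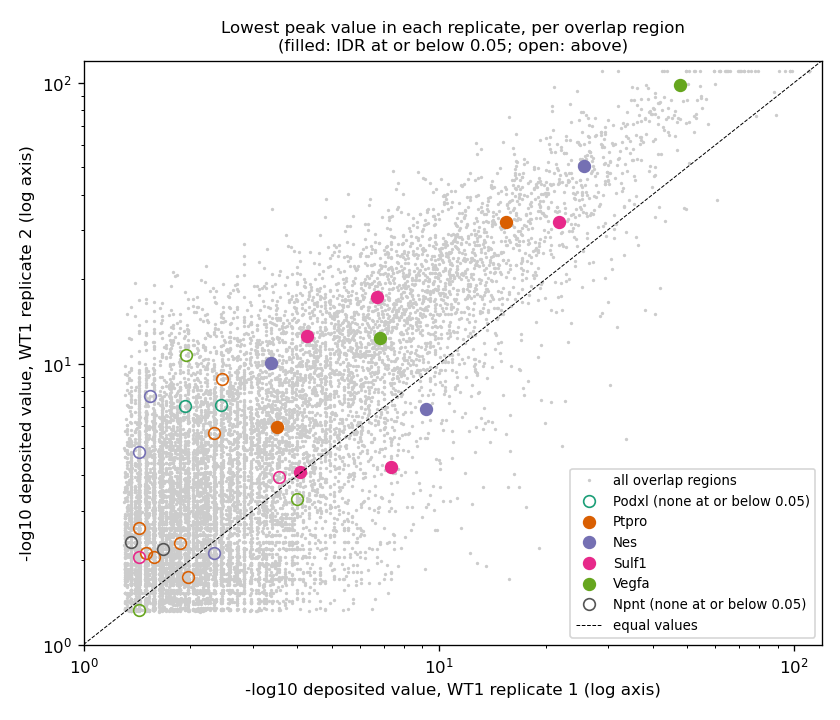
Lowest deposited value in WT1 replicate 1 (x) and replicate 2 (y) for each overlap region, as -log10 on log axes, with all regions in grey (45 with a value under 1e-110 are drawn at the edge) and those of the 7 genes in colour, filled where the IDR was 0.05 or lower. Most coloured points lie above the dashed line of equal values, 25 of 31, and the Vegfa region at 1.44e-48 and 5.76e-99 lies farthest out.

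Genes of the same families as the 7, or related to them more loosely, were looked at by the same rule. They are set against the same 26.1% of all protein-coding genes. Over 7 lists, 33 of 70 genes (47.1%) had a reproducible region in the gene or within 50 kb. The 70 genes run from 3.53 kb (Arhgdia) to 634 kb (Grip1), and length was not matched. The median over all protein-coding genes is 17.2 kb. Some of the 33 count only through a region nearer to another gene, such as Lmnb1 (Marchf3) and Hs2st1 (Selenof). The genes were chosen with earlier results of these data known, and no list was tested.

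Of 10 genes of the podocalyxin family and its apical adaptors, 2 had a reproducible region. Slc9a3r1 had 1 inside the gene (IDR 0.00203), and Slc9a3r2, whose product NHERF2 ties podocalyxin to ezrin, had 1 at 148 bp from its lower-coordinate end (IDR 0.00363). Ezr, which encodes ezrin, and Cd34 had overlap regions only above the threshold (IDR 0.258 and 0.312). Among 10 phosphatases related to Ptpro, phosphatase substrates and podocyte partners, 7 had one. The lowest IDRs were at the receptor kinase gene Epha4 (4.86e-07, 30.1 kb outside the gene) and at Nphs1, which encodes nephrin (5.23e-07). The kinase gene Syk followed (6.85e-06, 20.9 kb outside the gene). Of the phosphatases themselves, Ptprb had 1 and Ptprj had 2, and Ptprh and Ptprq had none. Those of Ptprj lay 98.5 and 758.5 bp beyond its higher-coordinate end and were nearer to Gm46752.

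Of 10 genes for intermediate filaments and their cross-linkers, 6 had a reproducible region. The lowest IDRs were at Gfap (3.87e-06), the nuclear lamin gene Lmna (7.62e-05) and the desmin gene Des (9.35e-05), but another gene was nearer to each of these regions, C1ql1, Mex3a and Speg. Lmna and Des also had a reproducible region to which they were the nearest gene, inside Lmna (IDR 0.00491) and 95 bp from the lower-coordinate end of Des (IDR 0.0453). Vim, which encodes the main filament protein of podocytes, had 1 overlap region at an IDR of 0.225. Of 14 genes for heparan sulfate enzymes and proteoglycans, 7 had one. Sulf2, the paralogue of Sulf1, had 4, with the lowest IDR at 2.9e-06 inside the gene and another at 1.06e-05, 5 bp from its higher-coordinate end. The cell surface proteoglycan genes Sdc4 and Gpc3 had lowest IDRs of 1.23e-06, inside Sdc4, and 0.000808, 35.4 kb outside Gpc3.

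Of 9 VEGF ligands and receptors, 3 had a reproducible region. They were the coreceptor gene Nrp2, the placental growth factor gene Pgf and the receptor gene Flt1 (IDR 0.0453). Nrp2 had 1 region 42.2 kb outside the gene (IDR 1.23e-05) and 1 inside it (7.8e-05). The region of Pgf was 49.9 kb away and nearer to Eif2b2 (0.008). Kdr, which encodes the main VEGF-A receptor of endothelium, had no overlap region. Another list of 7 genes held Angpt2, Angpt4, the Tie receptor genes Tek and Tie1, the angiopoietin-like genes Angptl2 and Angptl4, and Svep1. Of these, 3 had a reproducible region, Angpt2 (0.000267), Angpt4 (0.00563) and Tie1 (0.0354, 43.5 kb away and nearer to 2610528J11Rik). Tek, which encodes Tie2, had no overlap region, like Angpt1. Of 10 genes listed with nephronectin, among them those of its receptor and of the basement membrane, 5 had a reproducible region. The lowest IDRs were at Itgb1 (1.13e-05, 5.5 bp inside a gene end), Fras1 (0.00068) and Frem2 (0.00488). Itga8, the integrin chain that pairs with Itgb1 in the nephronectin receptor, had 1 overlap region at an IDR of 0.235.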

How the data were processed

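WT1 replicates 1 and 2 each had a deposited peak list, and 1 more table held the regions that both lists share. Coordinates are on mm10, per the submitters' processing notes. The sources used here do not give the aligner, the peak caller or whether IgG reads were used. Per the labels' protocols, libraries were made from DNA digested with MseI plus either AluI or HaeIII and amplified by 18 rounds of PCR. The deposited peak lists give 1 p-value or q-value per peak (highest 0.0499), and which of these it is, is not stated. The deposited table of both gives a value from 5.19e-08 to 0.555, read as an IDR from the names of its regions.

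Peaks and regions were placed by midpoint, 1-based, in the gene or within 50 kb, with RefSeq gene ends of GRCm38.p6. Peaks overlapped when they shared 1 bp. Start sites came from the RefSeq promoter table for Ptpro, Nes, Vegfa and Npnt; elsewhere distances are to the nearer gene end. A region's value in a replicate is the lowest of its peaks. Functions were tested on simulated data (Python 3.11.15, pandas 2.3.3, scipy 1.17.1). The genes and lists were chosen with earlier results of these data known. All 7 genes are named, with up to 3 genes per list by lowest IDR and others chosen after their values were seen. Alternatives were other IDR thresholds, windows and overlap rules, the nearest gene only, each replicate alone (its 4411 smallest values) and, added after the data were seen, merged regions.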

Additional observations from a re-analysis of the deposited data

How the results depend on the processing

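The number of the 7 genes with a reproducible region was 4, and ran from 3 to 6 over the alternatives. Ptpro, Nes and Sulf1 were counted under every alternative run, Angpt1 under none. Vegfa dropped out with the gene and 10 kb and with the gene alone. Podxl came in at an IDR of 0.1, with 100 kb, with all overlap regions and from replicate 2 alone, where it had 2 of the 4411 strongest peaks; Npnt came in with all overlap regions only. The 12 reproducible regions became 31 with all overlap regions and 4 inside the genes alone. The share of all protein-coding genes, 26.1%, became 57.0% with all overlap regions, 13.6% with 10 kb, 7.95% with the gene alone and 12.0% when a region counted for its nearest gene only. Of the 7 genes, 4 had a peak among the 4411 smallest values of replicate 1 alone and 5 among those of replicate 2 alone, against 24.7% and 26.2% of all protein-coding genes. Requiring a reciprocal overlap of 50% lowered the share of overlapping peaks at the 7 genes to 46.3% for replicate 1 (95% interval 32.6 to 60.4; whole list 27.7%) and to 35.7% for replicate 2 (24.6 to 48.1; whole list 25.5%). With values of 0.01 or lower in both lists it was 87.0% for replicate 1 (66.4 to 97.2; whole list 56.4%) and 42% for replicate 2 (28.2 to 56.8; whole list 31.4%). For replicate 2, the interval included the whole-list share under both. The files give no counts, so how depth limits the weaker peaks is unknown. The absence of an overlap region at Angpt1 is a statement about calls at this depth.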

Other observations

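Peak edges often fell exactly where AluI and, less often, MseI cut, which are enzymes of the library protocol. Inside the promoter windows, leaving out 20 bases at each side, replicate 1 had 997 peak starts, of which 24.5% stood at an AluI cut point and 6.02% at an MseI cut point, against 0.52% and 0.325% of all positions there. Replicate 2 had 1688 peak starts, with 16.6% and 5.33%. At HaeIII cut points the shares were 0.602% in replicate 1 and 0.948% in replicate 2, against 0.613% of all positions. Peak ends gave 21.2%, 5.67% and 0.309% in replicate 1 and 15.7%, 5.79% and 1.54% in replicate 2 for AluI, MseI and HaeIII. The labels name both enzyme combinations without saying which sample had which.

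At the 7 genes, 27 overlap regions were made of 1 peak from each replicate. Of these, 7 had the same first base in both replicates, 9 the same last base and 3 both. The same shares over all overlap regions were not computed, so these counts cannot be called particular to these genes. The part of the enzyme sites in this was not tested, since a genome sequence was not used here and only 4 peak edges fell inside the promoter windows of these genes. None of those 4, at Nes and Npnt, stood at a cut point of AluI, HaeIII or MseI.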
